A study of Rattus norvegicus with 2 samples.

Results

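The genes described here are a list of 55 rat genes of DNA replication and S phase. They were chosen by their known function, but with earlier results of these data known. They fall into 5 roles: 22 genes of origin licensing and firing, 18 of the replication fork, 4 of nucleotide supply, 7 of E2F factors and the cyclins and kinase of S phase, and 4 of the chromatin of replicated DNA. Of the 55, 50 had a probe that could be named and were measured on both arrays, among 10852 genes measured on the withdrawal array and 10241 on the Bcl-2 array. Mcm5, Rpa1, E2f2, Uhrf1 and Chaf1a had no named probe and are not analysed here.

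The cells were primary neural stem or precursor cells from the cortex of Sprague-Dawley rat embryos at embryonic day 14, grown in N2 medium with 10 ng/mL of basic fibroblast growth factor (bFGF), which keeps such cells dividing. They were transfected transiently with 4 µg of plasmid, either the empty MSCV-IRES-EGFP vector or the same vector carrying rat Bcl-2, a protein of the mitochondrial membrane that protects cells from apoptosis. They then either stayed in N2 with bFGF or were kept for 2 days without bFGF in NB medium, so that the basal medium changed together with the factor. On the withdrawal array the red (Cy5) channel is labelled as vector-transfected cells without bFGF and the green (Cy3) channel as vector-transfected cells with bFGF. On the other array, called the Bcl-2 array after its label, the red channel is labelled as Bcl-2-transfected cells with bFGF and the green channel, again, as vector-transfected cells with bFGF. All cultures therefore share the strain, the embryonic age, the backbone and the transfection, and a transient transfection leaves untransfected cells in each culture, in a share that the labels do not give. Each comparison is 1 array with no dye swap, so no test between conditions is possible, and the number of arrays limits the precision.

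A cell licenses its origins before S phase: the origin recognition complex with Cdc6 and Cdt1 loads the Mcm helicase, and geminin (Gmnn) blocks Cdt1 once replication has begun. The kinase Cdc7 with its activator Dbf4, and cyclin-dependent kinases, then turn the loaded helicase into an active fork with Cdc45 and the GINS complex, at which the polymerases, the Pcna clamp and its loader RFC copy the DNA. Many of these genes are transcribed by E2F factors when growth factors drive a cell towards S phase, and neural precursors in culture depend on bFGF for this drive.

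E2F sites show what many of these promoters share, and they were not used to choose the genes. The site was searched as the 8-letter words TTTCCCGC, TTTCGCGC, TTTGCCGC and TTTGGCGC on both strands, in the 300 bases from 250 before to 50 after each gene's start in RefSeq's rat assembly GRCr8. Of the 55 genes, 44 had an entry, in 46 promoters. Cdc6, Orc1, Orc4, Mcm4, Gins4, Rpa3, Rrm2, E2f1, E2f2, Ccne2 and Ccna2 had none and were not searched. Among these are Cdc6 and Orc1, the members with the lowest ratios on the withdrawal array. At least 1 site was found in 19 of the 46 promoters, 41.3% (95% exact binomial interval 27.0 to 56.8%), and in 716 of all 33469 promoters, 2.14%. The members' promoters had a median GC content of 60.7% against 51.7% for all promoters, and of the 8007 promoters at least as GC-rich as the median member 4.38% held a site. In the 150 bases before the start alone, the share was 19.6% for the members and 1.14% for all promoters. The stretches below come from 3 helicase subunits (Mcm2, Mcm6 and Mcm7), a subunit of the GINS complex, the factor E2f3 itself and thymidylate synthase (Tyms). The first 5 of these genes lay below 0 on the withdrawal array and above 0 on the Bcl-2 array, while Tyms lay near 0 on both. Gins1 turned to 0.01 on the withdrawal array without loess. Those sides were common, with 46 of 50 measured members below 0 on the withdrawal array and 44 above 0 on the Bcl-2 array. Orc6 and Gins2 lay on the same sides with a CCAAT box but no E2F site in their promoters. A link between site and direction was not tested. Each reads 5′ to 3′ on the gene's strand, 70 bases long, with the letters of a site in capitals. Where 2 words on opposite strands overlap, the capitals run over both. Mcm2 is at chr4:122918095-122918164 on the minus strand, Mcm6 at chr13:42404453-42404522 on the minus strand and Mcm7 at chr12:22163194-22163263 on the minus strand. Gins1 is at chr3:160184850-160184919 on the plus strand, E2f3 at chr17:34810306-34810375 on the plus strand and Tyms at chr9:120776084-120776153 on the minus strand.
Mcm2: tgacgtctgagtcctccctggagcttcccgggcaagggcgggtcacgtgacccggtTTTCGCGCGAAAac
Mcm6: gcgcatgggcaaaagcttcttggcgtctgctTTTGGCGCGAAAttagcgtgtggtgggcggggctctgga
Mcm7: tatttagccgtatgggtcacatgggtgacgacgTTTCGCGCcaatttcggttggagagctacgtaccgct
Gins1: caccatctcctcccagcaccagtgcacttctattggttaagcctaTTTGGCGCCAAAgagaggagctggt
E2f3: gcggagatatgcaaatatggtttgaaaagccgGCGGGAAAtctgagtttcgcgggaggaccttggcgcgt
Tyms: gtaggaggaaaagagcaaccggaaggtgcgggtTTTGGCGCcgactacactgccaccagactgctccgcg
In the stretches of Mcm2, Mcm6 and Gins1 a pair of words on opposite strands overlaps, and those of Mcm7, E2f3 and Tyms hold 1 word each. By role, a site was found in 10 of 17 licensing genes, 5 of 17 fork genes, 1 of 3 genes of nucleotide supply, 1 of 3 E2F and cyclin genes and 2 of 4 chromatin genes. In the 150 bases before the start alone, the counts were 6, 0, 1, 1 and 1, in the same order. The word CCAAT on either strand, the box bound by the factor NF-Y, stood in 60.9% of the members' promoters and 37.5% of all, and the CHR element, known from genes of later cell cycle phases, in 19.6% and 19.7%. The latter was searched on both strands as TTTGAA and in its variant form TTCGAA. A match describes letters in a window and not a bound site.

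The labels of the 2 arrays did not sit together, which bears on every direction given for the members. Over all gene spots the ratios of the arrays, which share the dye orientation and the labelled control, correlated at r = -0.67 (-0.12 with the scanner software's own ratio). After scaling, the green channel of the Bcl-2 array stood nearer to the red channel of the withdrawal array (SD of the log2 difference 0.14 over 26861 gene spots) than to the green channel that carries its own label (SD 0.40). Among the 50 measured members the difference between those identically labelled green channels had a median of -0.31 on the log2 scale and ran from -1.13 to 0.31, with 48 members lower on the Bcl-2 array. The difference between the green channel of the Bcl-2 array and the red channel of the withdrawal array had a median of 0.05 and ran from -0.25 to 0.23. These differences rest on the scaling: with raw signals set to each channel's median, the medians were -0.63 between the green channels and -0.44 between green of the Bcl-2 array and red of the withdrawal array. After the scaling between arrays, the remaining pair, red of the Bcl-2 array and green of the withdrawal array, had a median difference of -0.09, from -0.29 to 0.15. With the raw signals that median turned positive and was larger in size, as given in the last section. For these reasons the direction of neither array is settled. Ratios are given below as labelled, red over green, and the main counts and medians are followed by their values with the sign turned; a turned ratio keeps its size. The single probe of Bcl2 read a log2 ratio of -0.02 on the Bcl-2 array and 0.39 on the withdrawal array, and the labels do not say whether it reads the transfected construct.

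The arrays held 42877 gene spots each. Well above background were 66.3% (green) and 72.0% (red) of them on the withdrawal array, and 66.6% and 66.1% on the Bcl-2 array, with no saturated spot. All 50 members were well above background in both channels of both arrays. Of the 61 member probes 55 were printed once, so the error of a ratio comes from the scanner software's estimate for the spot, 0.20 to 0.24 on the log2 scale. For comparison, spots of one probe printed 3 or more times had an SD of 0.07 (withdrawal array) and 0.06 (Bcl-2 array). The channel signals of single genes below are log2 intensities after scaling between arrays, and they are compared within a gene only. For mitosis genes and cell type markers linear signals are also summed over a list, and the brightest genes weigh most in such sums.

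On the withdrawal array, which asks what removal of bFGF does to the vector-transfected cells, the replication genes read lower in red, the channel named for the absence of bFGF. Of the 50 members 46 lay below 0, against 45.8% of all genes, and their median log2 ratio was -0.37, against 0.03 for all genes. At least 1.5-fold lower were 8 members (2.79% of all genes) and at least 1.5-fold higher none (7.94% of all genes). At least 2-fold lower were Cdc6 and Orc1 (0.470% of all genes), and no member was at least 2-fold higher (2.42% of all genes). Turned, 46 members lay above 0, the median was 0.37 and the same 8 were at least 1.5-fold higher. By the scanner software's ratio, 24 members lay below 0 by more than 2 of its errors (13.7% of all genes) and none lay above 0 by as much (16.9% of all genes). By that ratio Cdt1 joined Cdc6 and Orc1, just past 2-fold lower. If the labels hold, fewer dividing cells and less RNA of these genes per cell cannot be told apart in such bulk RNA. Nor can removal of bFGF be told apart from the change to NB medium.

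On the Bcl-2 array, which asks how Bcl-2 changes cells that keep bFGF, most members read higher in red, the channel labelled Bcl-2. Of the 50 members 44 lay above 0, against 48.2% of all genes, with a median of 0.27 against -0.01. Orc1, Cdc6 and Mcm7 were at least 1.5-fold higher (2.29% of all genes) and no member was at least 1.5-fold lower (6.64% of all genes). Orc1 alone was at least 2-fold higher (0.557% of all genes), and none was at least 2-fold lower (2.00% of all genes). Turned, 44 members lay below 0 and the median was -0.27. By the scanner software's ratio, 19 members lay above 0 by more than 2 errors (14.6% of all genes) and none lay below it by as much (15.8% of all genes). Both comparisons are labelled with the same control, so the values are set side by side and no likeness between the arrays is drawn from them.

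**Figure D1:**
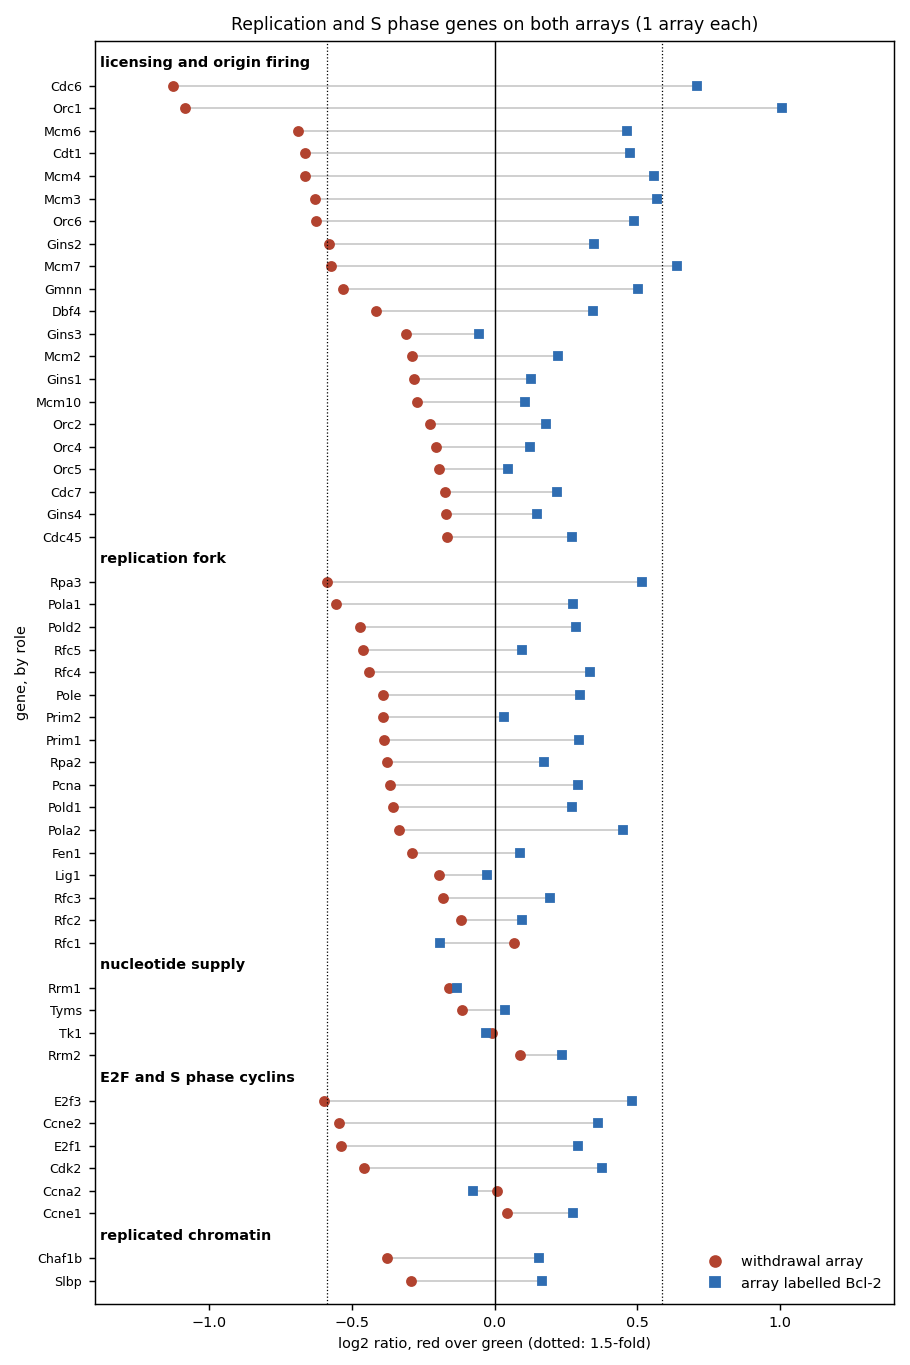
Log2 ratio, red over green, of the 50 measured genes by role, with circles for the withdrawal array and squares for the Bcl-2 array (1 array each) and dotted lines at 1.5-fold. Circles lie left of 0 for 46 genes and squares right of it for 44. Without loess, 12 circles and 5 squares change sign, and with the dyes turned every symbol changes side.

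The choice of normalization shifted the whole withdrawal array. Loess removes a trend of the ratio with brightness, and the members were bright, with a median log2 intensity of 11.17 against 9.19 for all genes. With median centring in place of loess, the median of all genes was 0.17, and that of the 2784 genes at least as bright as the median member was 0.31. The members' median was then -0.11, which is 0.28 below that of all genes, where with loess it lay 0.40 below. On that scale 38 of the 50 members kept their sign and 45 lay below the median of all genes. The 12 that changed sign were Orc2, Orc4, Cdc45, Gins1, Gins4, Rfc2, Rfc3, Fen1, Lig1, Rrm1, Tyms and Tk1, and for each of these the direction on the withdrawal array depends on the scaling. On the Bcl-2 array median centring gave a median of 0.22 for the members and -0.07 for all genes, with 47 members above the latter.

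**Figure D2:**
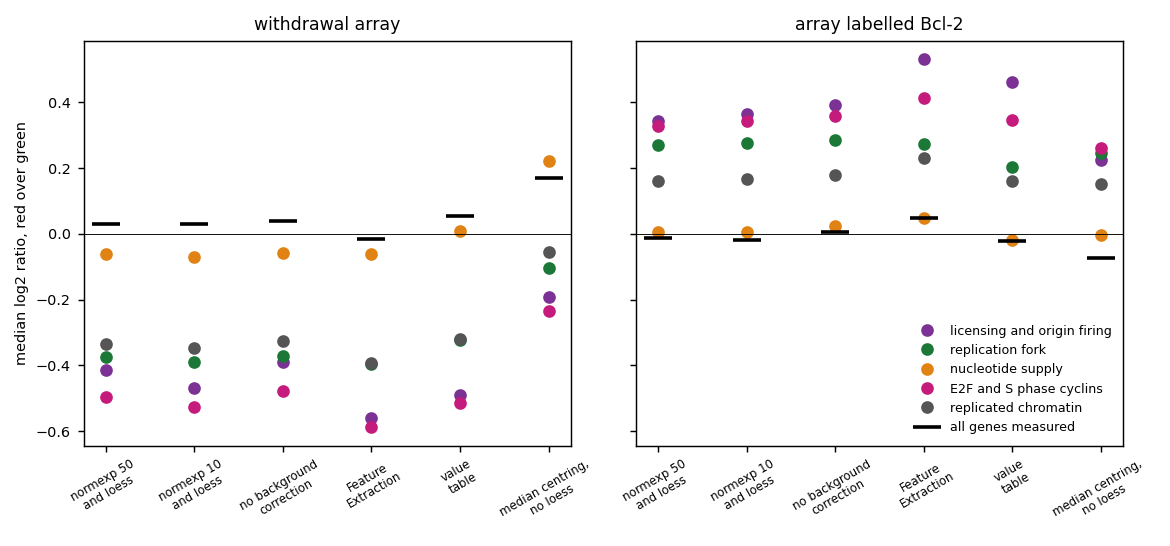
Median log2 ratio, red over green, of the measured genes of each role (points) and of all genes measured (bars) under 6 ways of processing, for each array. The licensing, fork, chromatin and E2F medians stay below 0 and below the bar on the withdrawal array, with licensing at -0.41 with loess and -0.19 with median centring, whereas nucleotide supply crosses 0. All turn sign if the dyes are turned.

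The licensing genes held 7 of the 8 members at least 1.5-fold lower on the withdrawal array (2.79% of all genes). That count rests on the processing. With the software's ratio Pola1, Pola2, E2f1, E2f3 and Ccne2 passed it too, beside 10 licensing genes (8.39% of all genes). With median centring only 2 members did, the licensing genes Orc1 and Cdc6 (1.83% of all genes). All 21 licensing genes measured lay below 0 on the withdrawal array with a median of -0.41 (0.41 turned). Of the same genes 20 lay above 0 on the Bcl-2 array, with a median of 0.34 (-0.34 turned). Orc2, Orc4, Cdc45, Gins1 and Gins4 are the licensing genes whose sign on the withdrawal array turned with median centring.

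Orc1, the largest subunit of the origin recognition complex and the one whose amount changes through the cell cycle, had log2 signals on the withdrawal array of 10.27 in green and 9.19 in red, and on the Bcl-2 array of 9.14 in green and 10.15 in red. The green channels, labelled alike, thus differed by -1.13, while the lower pair, red of the first array and green of the second, lay within 0.05. Its ratio was -1.08 (2.12-fold lower in red), position 35 from the lowest of 10852 genes, and 1.01 (2.01-fold higher in red), position 57 from the highest of 10241. The scanner software gave -1.27 with an error of 0.24, and 1.31 with an error of 0.24. The other subunits stood nearer to 0. Orc6 had -0.63 and 0.49, Orc2 -0.23 and 0.18, Orc4 -0.20 and 0.13, and Orc5 -0.19 and 0.05 on the withdrawal array and the Bcl-2 array, in that order. Orc2 and Orc4 turn positive on the withdrawal array with median centring, and Orc5 turns negative on the Bcl-2 array.

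Cdc6, the ATPase that joins the origin complex to load the helicase, had log2 signals on the withdrawal array of 10.62 in green and 9.49 in red, and on the Bcl-2 array of 9.65 in green and 10.36 in red. Of the members it had the lowest ratio on the withdrawal array, -1.12 (2.18-fold lower in red), position 29 from the lowest of 10852 genes. The ratio on the Bcl-2 array was 0.71 (1.64-fold higher in red). The software's ratios were -1.31 with an error of 0.24 and 0.88 with an error of 0.22, so Cdc6 and Orc1 each lay more than 2 errors from 0 on both arrays. Cdt1, the partner of Cdc6 in loading, had 8.77 in green and 8.11 in red on the first array, and 8.16 in green and 8.64 in red on the second. Its ratios were -0.66 and 0.48, and the one on the Bcl-2 array was 0.93 by the software, with an error of 0.23. Geminin, which holds Cdt1 inactive, had 11.82 in green and 11.29 in red, and 11.26 in green and 11.76 in red, giving -0.53 and 0.50. Cdt1 and the gene of its inhibitor thus lay on the same side of 0 on each array.

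The Mcm helicase unwinds DNA ahead of the fork, and 5 of its 6 subunits were measured. Their median ratio was -0.63 on the withdrawal array and 0.56 on the Bcl-2 array. On the former 3 of them were at least 1.5-fold lower (2.79% of all genes). Mcm3 fell short of this with the brightest probe, and all of them did with median centring. Mcm3 had log2 signals of 13.92 in green and 13.29 in red on the first array, and 13.24 in green and 13.81 in red on the second, giving -0.63 and 0.57. Mcm4 had 11.05 and 10.39, then 10.40 and 10.96, in the same order, giving -0.66 and 0.56. The 2 probes of Mcm4 read -0.60 and -0.72 on the withdrawal array and 0.51 and 0.61 on the Bcl-2 array, so they differed by less than the software's error. Mcm6 had 11.34 and 10.66, then 10.69 and 11.15, giving -0.69 and 0.46. Mcm7 had 14.84 and 14.27, then 14.15 and 14.79, giving -0.57 and 0.64. In each of these 4 subunits the green channel of the withdrawal array and the red channel of the Bcl-2 array were the higher pair, and the pairs did not overlap. Mcm2 stood apart with -0.29 and 0.22, and its 2 probes read -0.44 and -0.14 on the withdrawal array. Mcm10, which helps to start the helicase, had -0.27 and 0.11.

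**Figure D3:**
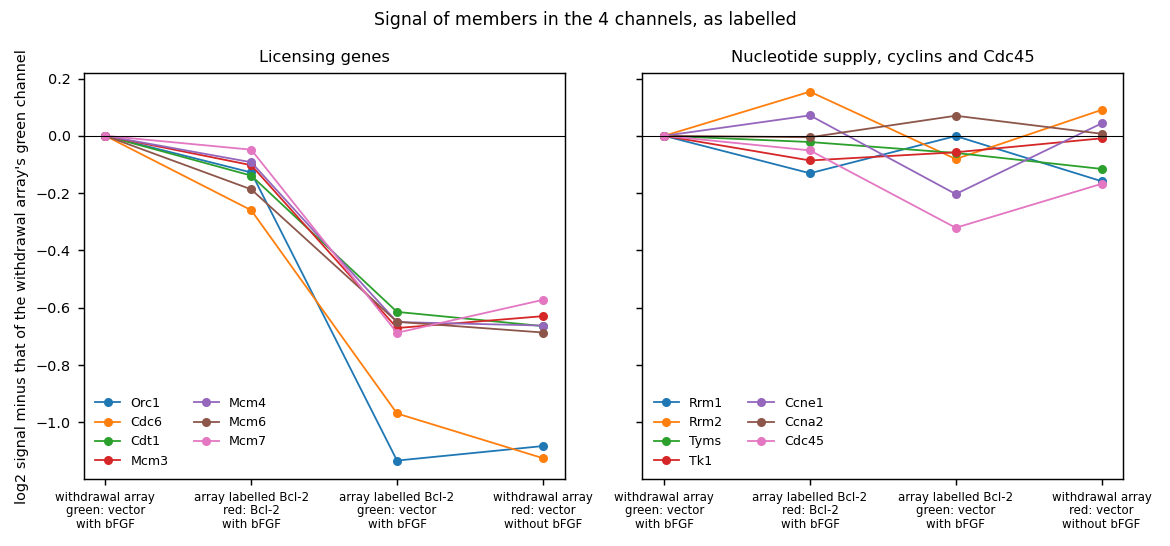
Log2 signal in each of the 4 channels minus that of the withdrawal array's green channel, with channels named by their labels. On the left are 7 licensing genes: Orc1, Cdc6, Cdt1, Mcm3, Mcm4, Mcm6 and Mcm7. On the right are 7 genes: Rrm1, Rrm2, Tyms, Tk1, Ccne1, Ccna2 and Cdc45, the last itself a gene of origin firing. Lines join the values of a gene and stand for no order in time. On the left the green channel of the Bcl-2 array lies from -1.13 (Orc1) to -0.61 (Cdt1), although it carries the label of the channel at 0. On the right the values lie between -0.32 and 0.15. Both sets were picked by hand, so the contrast between the panels does not stand for whole roles. Among genes not drawn, the difference of the green channels was -0.04 for Orc4, -0.26 for Mcm2 and -0.42 for Ccne2.

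Among the genes that fire a licensed origin, Dbf4, the activator of Cdc7, had -0.41 on the withdrawal array and 0.34 on the Bcl-2 array, and Cdc7 had -0.17 and 0.22. Cdc45, which binds the Mcm ring to form the active helicase, had log2 signals of 13.83 in green and 13.66 in red, and 13.51 in green and 13.78 in red. Its ratios were -0.17 and 0.27, and the first turned to 0.16 with median centring. The GINS complex, the other partner of the active helicase, had medians of -0.30 (-0.10 with median centring) and 0.14. Gins2 had -0.58 and 0.35, Gins3 -0.31 and -0.05, Gins1 -0.28 and 0.13, and Gins4 -0.17 and 0.15. Gins3 was the single licensing gene below 0 on the Bcl-2 array, and Gins1 and Gins4 turned to 0.01 and 0.09 on the withdrawal array with median centring.

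The genes of the replication fork formed a narrower band. Of 17 measured, 16 lay below 0 on the withdrawal array with a median of -0.37 and a range of -0.58 to 0.07, and 15 lay above 0 on the Bcl-2 array with a median of 0.27 and a range of -0.19 to 0.52. With the sign turned the medians are 0.37 and -0.27, and none of the 17 reached 1.5-fold on either array. That count rests on the processing: Pola1 (-0.89) and Pola2 (-0.60) passed it on the withdrawal array with the software's ratio, and Pola1 (-0.69) and Rpa3 (-0.59) with a smaller offset in the background correction. Pola2 passed it on the Bcl-2 array with the software's ratio, at 0.67. Rpa3, the small subunit of the protein that coats single-stranded DNA, had log2 signals of 13.38 in green and 12.79 in red on the first, and 12.82 in green and 13.34 in red on the second. Its ratios were -0.58 and 0.52, and Rpa2 of the same complex had -0.37 and 0.17. Pcna, the sliding clamp, had 13.93 in green and 13.56 in red, and 13.51 in green and 13.80 in red, giving -0.36 and 0.29.

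The polymerases, which copy the strands, lay between -0.55 and -0.34 on the withdrawal array. Pola1 and Pola2 of polymerase alpha had -0.55 and -0.34 on the withdrawal array and 0.27 and 0.45 on the Bcl-2 array. Prim1 and Prim2, the primase that lays the RNA primers, had -0.39 and -0.39, and 0.30 and 0.03. Pold1 and Pold2 of polymerase delta had -0.36 and -0.47, and 0.27 and 0.28, and Pole, the catalytic subunit of polymerase epsilon, had -0.39 and 0.30. The genes that finish the lagging strand were closer to 0: Fen1, the flap nuclease, had -0.29 and 0.09, and Lig1, the ligase that seals the fragments, had -0.20 and -0.03. With median centring Fen1 and Lig1 turned positive on the withdrawal array, at 0.08 and 0.14, and Lig1 turned positive on the other at 0.09.

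The clamp loader RFC opens the Pcna ring and sets it on DNA, and its 5 subunits had medians of -0.18, which turned to 0.12 with median centring, and 0.10. Rfc5 had -0.46 and 0.10, Rfc4 -0.44 and 0.33, Rfc3 -0.18 and 0.19, and Rfc2 -0.12 and 0.10. Rfc1, the large subunit, stood with loess on the other side of 0 from these on both arrays, at 0.07 and -0.19. Its 3 probes ran from -0.11 to 0.07 on the withdrawal array and from -0.30 to -0.09 on the other, so its sign on the former differs between probes. Rfc2 and Rfc3 turned positive on the withdrawal array with median centring.

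**Figure D4:**
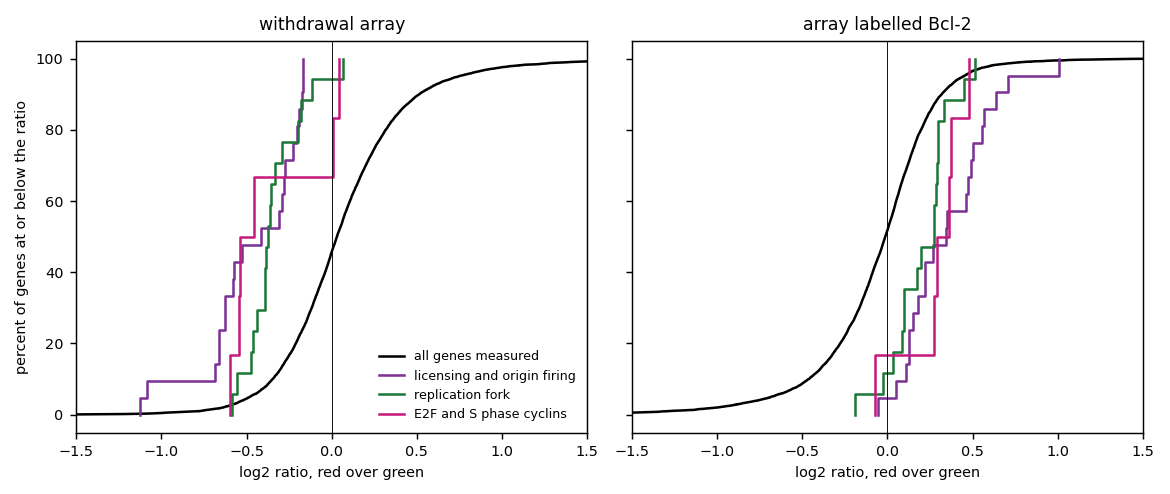
Share of genes at or below each log2 ratio, red over green, for all genes measured (black) and for the licensing, fork and E2F and cyclin genes, on each array. On the withdrawal array the coloured steps lie left of the black curve, with medians of -0.41, -0.37 and -0.50 against 0.03, and on the Bcl-2 array right of it, with 0.34, 0.27 and 0.33 against -0.01; with the dyes turned the sides are exchanged.

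The 4 members of nucleotide supply had medians near 0 with loess, while Rrm2 read 0.24 on the Bcl-2 array. Their median was -0.06 on the withdrawal array (0.22 with median centring, 0.06 with the sign turned) and 0.00 on the Bcl-2 array. Tk1, thymidine kinase, had log2 signals of 13.44 in green and 13.43 in red on the first array, and 13.38 in green and 13.36 in red on the second. Tyms, thymidylate synthase, had 10.41 and 10.30, then 10.35 and 10.39, in the same order. For both genes the 4 channels lay within the software's error of each other, with ratios of -0.01 and -0.03 for Tk1 and -0.12 and 0.04 for Tyms, and both genes change sign with median centring. Rrm1, the large subunit of ribonucleotide reductase, had 9.35 and 9.19, then 9.35 and 9.22, giving -0.16 and -0.13, and the first turned to 0.10 with median centring. Rrm2, the small subunit that limits the enzyme in S phase, had 12.94 and 13.03, then 12.86 and 13.09, giving 0.09 and 0.24, but its 2 probes read -0.12 and 0.30 on the withdrawal array. Tyms carries an E2F site in its promoter, printed above, as do Mcm2, Mcm6 and Mcm7, and a link between site and ratio was not tested.

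Among the E2F factors and the cyclins of S phase, 4 of 6 lay below 0 on the withdrawal array, with a median of -0.50 (0.50 turned), and 5 lay above 0 on the Bcl-2 array, with a median of 0.33 (-0.33 turned). E2f3, an activating E2F factor, had log2 signals of 9.78 in green and 9.18 in red on the first array, and 9.28 in green and 9.76 in red on the second, giving -0.60 and 0.48. E2f1, another activating factor, had 11.05 and 10.51, then 10.58 and 10.87, giving -0.54 and 0.29, and both of its probes lay on the same side of 0 on each array. The cyclins were not alike. Ccne2 (cyclin E2) had 9.18 and 8.64, then 8.76 and 9.12, giving -0.54 and 0.36, and Cdk2, the kinase it activates, had 10.97 and 10.51, then 10.58 and 10.96, giving -0.46 and 0.38. Ccne1 (cyclin E1) had 12.65 and 12.69, then 12.44 and 12.72, giving 0.04 and 0.27. Ccna2 (cyclin A2), which acts through S phase and into mitosis, had 13.72 and 13.73, then 13.79 and 13.72, giving 0.01 and -0.08, with probes of both signs on the withdrawal array. Ccna2 turned positive on the Bcl-2 array with median centring.

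Of the chromatin genes only 2 were measured. Chaf1b, a subunit of the factor that places histones on new DNA, had -0.38 on the withdrawal array and 0.16 on the Bcl-2 array. Slbp, which binds the end of histone mRNA, had -0.29 and 0.17. With the sign turned their medians are 0.33 and -0.16.

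Other genes of the same pathways, from lists by function made with earlier results known, lay with loess mostly on the members' side of 0. With median centring, though, 37 lay below 0 and 44 above on the withdrawal array, a median of 0.02 against 0.17 for all genes. Of 105 listed, 81 were measured on each array. With loess, 67 lay on the withdrawal array below 0 (45.8% of all genes) with a median of -0.24. On that array 9 were at least 1.5-fold lower (2.79% of all genes) and 3 at least 1.5-fold higher (7.94% of all genes). As for the Bcl-2 array, 63 lay above 0 (54 with median centring), against 48.2% of all genes with loess, with a median of 0.16. There 3 were at least 1.5-fold higher (2.29% of all genes) and none as much lower (6.64% of all genes). With the sign turned these counts change sides. All 13 measured genes of the replicated chromatin list lay below 0 on the withdrawal array (5 with median centring) and above 0 on the Bcl-2 array (11 with median centring), led by Hells, a chromatin remodeller, at -0.90 and 0.77. The other genes of nucleotide supply had 18 of 22 below 0 with a median of -0.25 on the withdrawal array, and 15 of 21 above 0 with 0.14 on the Bcl-2 array. The 4 members of that role had medians near 0 with loess. The other E2F and pocket proteins were split, with 5 below and 6 above 0 and a median of 0.12 on the withdrawal array (-0.20 with the software's ratio), and 6 above and 5 below with 0.13 on the Bcl-2 array. Medians on the withdrawal and Bcl-2 arrays were -0.30 and 0.15 for other licensing genes, -0.19 and 0.05 for other fork genes, and -0.17 and 0.24 for checkpoint and repair genes. With median centring the withdrawal medians of these 3 lists were -0.06, 0.04 and 0.07, and that of the other nucleotide genes -0.03. Of the checkpoint and repair genes, Chek1, a kinase that guards stalled forks, had -0.75 and 0.46, and Ung, which removes uracil from DNA, had -0.69 and 0.60. Cdc25a, the phosphatase that activates Cdk2, had -0.76 and 0.45, and Tfdp1, the partner with which E2F factors bind DNA, had -0.72 and 0.41. Ppat and Umps, enzymes of purine and pyrimidine synthesis, had -0.69 and 0.50, and -0.65 and 0.40. Casp8ap2, needed for histone gene expression, had -0.61 and 0.38, and Mcm8, a relative of the Mcm helicase, -0.60 and 0.14. Pole2, a subunit of polymerase epsilon, had -0.56 and the highest ratio of these genes on the Bcl-2 array, 1.04. The 3 genes at least 1.5-fold higher on the withdrawal array were Rbl2, a pocket protein that represses E2F targets in resting cells, at 0.77 and -0.23, Pold4, a small subunit of polymerase delta, at 0.82 and -0.26, and Ctps2, a CTP synthase, at 0.62 and -0.40.

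Genes of mitosis had medians near 0 with loess, while single genes ran from -0.43 to 0.25 on the withdrawal array and from -0.22 to 0.21 on the Bcl-2 array. Their median was -0.00 on the withdrawal array (0.30 with median centring, where all genes had 0.17) and -0.01 on the Bcl-2 array over 9 of 10 genes, and their summed signals in the 4 channels ran from 61931 to 63959. Plk1, a mitotic kinase, had -0.06 (0.30 with median centring) and -0.18, and Ccnb1, cyclin B1, had 0.14 and 0.16. Bub1 lay on the members' side of 0 on each array, at -0.43 and 0.16, and Kif11 on the other side, at 0.25 and -0.09. Mki67 had probes of both signs on each array. Plk1 was the brightest gene of the list in each channel, with log2 signals from 14.15 to 14.33, and so weighed most in the sums.

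Markers of other cell types differed between the channels too. Of the 10 neural precursor markers 9, with Nes and Sox2 among them, were well above background in all 4 channels, and Msi1 was well above it in 1 channel alone. The astrocyte list had medians of 0.83 on the withdrawal array and -0.82 on the Bcl-2 array, with all 8 measured of 10 above 0 on the first (7 with median centring) and below 0 on the second. Its summed signal was 24559 and 24319 in the red channel of the first and the green channel of the second array, and 8662 and 8960 in the others, while Gfap, its defining gene, was not well above background in any channel. Apoe weighed heavily in these sums, with log2 signals of 13.45 and 13.45 in the channels of the higher sums, and 9.92 and 10.25 in the others. The neuron list had medians of 0.60 and -0.49 over 7 of 10 genes, and the fibroblast and meninges list 0.53 over 8 genes and -1.10 over 7. The fibroblast list summed to 15440 and 14710 in the same channels as the astrocyte list's higher sums, and to 6958 and 4960 in the others. The medians of these lists lay on the other side of 0 from the members' on each array, with loess and with median centring, and their part in the members' values was not tested.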

How the data were processed

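Total RNA was amplified and labelled with Cy3 and Cy5, and each sample was 1 two-colour Agilent array. The scanner files hold spot intensity values, background, flags and a log10 ratio, red over green, and its error, made by the authors with Feature Extraction 11.5.1.1 per the file headers, while the submitters' processing notes name 8.5.1.1. The deposited value table is a linear ratio. Its first column equals the withdrawal array's red over green up to a constant (100% of 28395 probes within 0.05 on the log2 scale), and its second equals the product of both arrays' ratios (100%), so the quotient was used. Its column medians are 0.932 and 0.944, and centring beyond such constants is not known.

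From the deposited intensity values, normexp (offset 50) and loess within each array were computed with limma 3.58.1 in R 4.3.3. Control spots had weight 0, and spots flagged as outliers (534 for withdrawal, 576 for Bcl-2) were left out. Aquantile scaling gave channel signals on the log2 scale. Probes had to be well above background in 1 channel or both, and a gene is the median of its probes. Accessions were named through RefSeq's GRCr8 table, without versions, for 60.4% of 30367 probes, and promoters come from RefSeq on GRCr8. A gene counted as at least 1.5-fold or 2-fold only if all its probes had one sign. The procedure was tested on simulated data. The summaries were made with pandas 2.3.3 and numpy 2.4.6 in Python 3.11.15.

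The members and lists were chosen with earlier results of these data known. All members may be named, and of the other pathway genes those at least 1.5-fold on either array. Microglia and blood, endothelium and pericyte, and oligodendrocyte markers had medians of -0.07, 0.10 and 0.16 on the withdrawal array and 0.13, -0.13 and -0.23 on the other. The neural precursor list had medians of 0.26 and -0.27.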

Additional observations from a re-analysis of the deposited data

How the results depend on the processing

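The alternatives were the Feature Extraction ratio, a normexp offset of 10, no background correction, median centring without loess, stricter and no filters on dim probes, outlier spots kept, the mean over probes or the brightest probe, and the value table. Under these 37 of the 50 members kept their sign on the withdrawal array and 44 on the Bcl-2 array. On the withdrawal array median centring without loess gave medians of -0.11 for the members, -0.19 for licensing, -0.10 for fork, 0.22 for nucleotide supply, -0.24 for E2F and cyclins and -0.055 for chromatin genes, with 16 members above 0, 2 at least 1.5-fold lower and 0 at least 2-fold lower. With the Feature Extraction ratio 15 members were at least 1.5-fold lower, against 8, while the share of all genes went from 2.79% to 8.39%. On the Bcl-2 array it gave 10 at least 1.5-fold higher, against 3, where the table of linear ratios gave 9, with 9.95% and 7.94% of all genes against 2.29%, and median centring left 0 at least 2-fold higher. Tk1 changed sign on the withdrawal array also with the value table and with the Feature Extraction ratio, and Ccna2 with the brightest probe. On the Bcl-2 array, Orc5 and Prim2 changed sign with the value table and Lig1 with the Feature Extraction ratio. The cause was not tested. For the other pathway genes and marker lists these alternatives were added after seeing the data. With the sign turned, the withdrawal array gave medians of 0.37 for the members, 0.41 for licensing, 0.37 for fork, 0.50 for E2F and cyclins and 0.33 for chromatin genes, with 4 members below 0, 46 above 0, 0 at least 1.5-fold lower, 8 at least 1.5-fold higher, 0 at least 2-fold lower and 2 at least 2-fold higher. Its genes past 1.5-fold were then Orc1 at 1.08, Orc6 at 0.63, Cdc6 at 1.12, Cdt1 at 0.66, Mcm3 at 0.63, Mcm4 at 0.66, Mcm6 at 0.69 and E2f3 at 0.60. The Bcl-2 array with the sign turned gave -0.27, -0.34, -0.27, -0.33 and -0.16 for the same groups, 44 members below 0, 6 above 0, 3 at least 1.5-fold lower, 0 at least 1.5-fold higher, 1 at least 2-fold lower and 0 at least 2-fold higher, with Orc1 at -1.01, Cdc6 at -0.71 and Mcm7 at -0.64. With raw signals scaled to the channel median, the members' median differences were -0.63 between the green channels, -0.44 between green of the Bcl-2 array and red of the withdrawal array, 0.33 between red of the former and green of the latter, and 0.48 between the red channels. In the 150 bases before the start, E2F sites stood in 19.6% of the members' promoters, CCAAT boxes in 47.8% and CHR elements in 8.70%, against 1.14%, 23.5% and 9.74% of all promoters. No paired analysis was possible because each comparison has 1 array. All members were well above background, but ratios of dim members moved with the background handling: on the withdrawal array Pola1 read -0.55, and -0.89 with the Feature Extraction ratio, Gins3 -0.31 and -0.65, while bright Mcm7 read -0.57 and -0.56.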
